A study of Mus musculus with 4 samples.

Results

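Peroxiredoxins and thioredoxins form one of the main systems that remove hydrogen peroxide from cells. The 10 genes described here, taken from the 49568 gene symbols of the deposited table by an exact match of the symbol, are the 6 peroxiredoxins Prdx1 to Prdx6, the thioredoxins Txn1 and Txn2 and the thioredoxin reductases Txnrd1 and Txnrd2. By textbook knowledge of the proteins, 5 act mainly in the cytosol (Prdx1, Prdx2, Prdx6, Txn1 and Txnrd1), 3 in mitochondria (Prdx3, Txn2 and Txnrd2), Prdx5 in mitochondria, peroxisomes and cytosol, and Prdx4 in the endoplasmic reticulum (ER). The series compared RNA of purified migrasomes, vesicles that grow on the retraction fibres behind a migrating cell, with RNA of cytosol, in mouse samples with 2 libraries per group and 4 in all. The sources used here give no strain, genotype, treatment, time, age or cell type for either group, nor how the cytosol was prepared.

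A peroxiredoxin reduces peroxide with a cysteine that becomes oxidised in turn. In most of them thioredoxin reduces the resulting disulfide, and thioredoxin reductase, a selenoprotein, restores thioredoxin with electrons from NADPH. The cytosol and the mitochondrion each hold a complete set of these parts. Prdx4 works in the ER, where its disulfide can be passed to protein disulfide isomerases, the enzymes that fold secreted proteins. Its mRNA carries a signal sequence and is translated at the ER membrane, whereas mRNAs of the cytosolic and most of the mitochondrial proteins are translated mainly on free ribosomes.

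The coding sequences below show a difference between some of the paralogs that bears on the compartment. Each begins at the start codon, is written 5′ to 3′ and comes from the principal transcript of the GENCODE M21 annotation of GRCm38. Capitals mark the bases that precede the first base aligned with the cytosolic paralog, Prdx1 for the peroxiredoxins and Txn1 for Txn2.
Prdx4: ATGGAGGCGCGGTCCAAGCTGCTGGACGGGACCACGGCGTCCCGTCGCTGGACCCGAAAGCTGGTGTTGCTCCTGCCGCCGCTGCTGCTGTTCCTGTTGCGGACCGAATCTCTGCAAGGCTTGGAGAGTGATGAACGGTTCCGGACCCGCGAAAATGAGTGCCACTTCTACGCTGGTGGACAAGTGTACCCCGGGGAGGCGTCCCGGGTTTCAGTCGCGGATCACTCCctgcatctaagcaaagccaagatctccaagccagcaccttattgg
Prdx3: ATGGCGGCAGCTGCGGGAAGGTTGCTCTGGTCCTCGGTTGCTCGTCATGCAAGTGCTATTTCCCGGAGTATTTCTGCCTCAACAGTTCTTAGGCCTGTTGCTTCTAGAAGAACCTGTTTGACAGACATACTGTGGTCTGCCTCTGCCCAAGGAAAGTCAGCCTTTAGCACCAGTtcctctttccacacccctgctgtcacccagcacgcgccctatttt
Prdx1: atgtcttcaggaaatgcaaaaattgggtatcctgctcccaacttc
Prdx2: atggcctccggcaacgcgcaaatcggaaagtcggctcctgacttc
Txn2: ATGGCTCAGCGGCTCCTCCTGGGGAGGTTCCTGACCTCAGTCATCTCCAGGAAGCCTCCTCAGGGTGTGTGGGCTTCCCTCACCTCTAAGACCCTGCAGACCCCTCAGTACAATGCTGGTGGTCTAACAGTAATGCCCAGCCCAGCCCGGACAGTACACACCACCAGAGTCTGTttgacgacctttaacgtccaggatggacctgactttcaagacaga
Txn1: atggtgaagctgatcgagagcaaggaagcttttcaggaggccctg
Prdx4 had 228 coding bases ahead of the aligned part, and Prdx3 and Txn2 had 174 each. The ER signal of Prdx4 and the mitochondrial presequences of Prdx3 and Txn2 lie at this end of the coding sequences. The capitals mark where the alignment begins, not where a signal ends. Past the leading stretch, the coding sequence of Prdx4 was identical to that of Prdx1 at 67.0% of 588 aligned bases. No identical run was longer than 17 bases. Prdx3 and Prdx1 were identical at 66.5%, Prdx2 and Prdx1 at 69.9%, and Txn2 and Txn1 at 56.0%. Of the genes not printed, Prdx5 had 0 coding bases ahead of the part aligned with Prdx1. Prdx5 and Prdx1 were identical at 56.9% of 536 aligned bases, with no identical run longer than 7 bases. The 0 gives only where this alignment begins and does not show that Prdx5 lacks a mitochondrial presequence, which was not tested. Txnrd2 had 90 ahead of the part aligned with Txnrd1.

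The Prdx4 stretch lies at chrX:155334933-155338362, within the gene at chrX:155323918-155340754. That of Prdx3 lies at chr19:60871515-60874467, in the gene at chr19:60864051-60874556, and that of Txn2 at chr15:77927736-77927954, in the gene at chr15:77915047-77929006. The Prdx1 stretch lies at chr4:116687418-116687462 in the gene at chr4:116685544-116700822, and the Prdx2 stretch at chr8:84970242-84970286 in the gene at chr8:84969587-84974834. The Txn1 stretch lies at chr4:57951881-57956210 in the gene at chr4:57943373-57956411. Prdx1 and Prdx2 are on the plus strand and Prdx3, Prdx4, Txn1 and Txn2 on the minus strand, and the stretches of Prdx3, Prdx4 and Txn1 span introns. The other genes are Prdx5 at chr19:6906697-6910106 (minus), Prdx6 at chr1:161240112-161251219 (minus), Txnrd1 at chr10:82833951-82897712 (plus) and Txnrd2 at chr16:18426384-18479073 (plus).

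The libraries held 5171092 to 8608369 reads assigned to genes. Levels are normalised read counts as deposited. A difference is the migrasome mean less the cytosol mean of log2(value + 1), over n = 2 libraries per group. Its standard error (SE), 95% interval and p, adjusted by Benjamini-Hochberg, came from limma. The threshold was 0.05, over the 10860 genes that reached 10 in 2 or more libraries. All 10 genes passed that filter. Separate cultures are not named in the labels, so each p-value rests on the spread among these 4 libraries alone, and that spread may be technical. In both groups, markers of fibroblasts such as Col1a2 (1715 to 10736) and Vim (14221 to 33076) were abundant, although Thy1 stood at 7.54 to 23.7. The 7 markers summed to 26865 to 36982, and Vim was the largest of them in each library. Pdgfrb stood at 43.8 to 288. The 4 epithelial markers summed to at most 2.83 in any library, with Krt18 at 0, the 4 erythroid markers to 6.21 to 10.3, with Alas2 at 0, and the 6 macrophage markers to 17.0 to 50.1. The 4 RNAs retained in nuclei, mainly Malat1, summed to 11363 and 5944 in cytosol and 5426 and 4175 in migrasome. Neither group was thus free of these RNAs.

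Prdx4 was lower in migrasome, Prdx1 and Prdx2 were higher, and the other 7 did not pass the threshold. Of all genes tested, 8.68% passed as higher and 17.7% as lower, so 2 higher and 1 lower of 10 is near the background share. The median difference was 0.40 over the 10 genes and -0.0043 over all genes tested. The 5 cytosolic genes ranged from -0.10 to 0.74, the 3 mitochondrial genes from -0.14 to 0.54, and Prdx4 stood at -1.80. Both migrasome libraries lay above both cytosol libraries for 5 genes (Prdx1, Prdx2, Prdx3, Prdx5 and Prdx6) and below for 2 (Prdx4 and Txnrd1), against 33.3% and 36.3% of all genes tested.

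**Figure D1:**
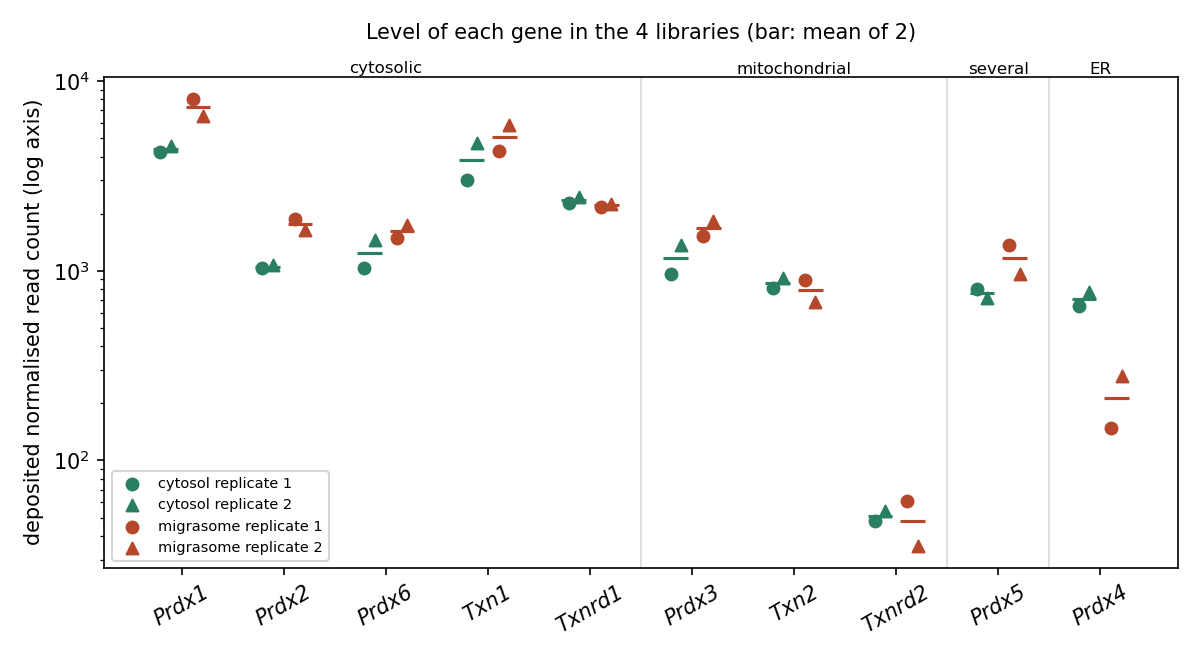
Deposited normalised read count (log axis) of the 10 genes in each of the 4 libraries, grouped by the compartment of the protein. Circles are replicate 1, triangles replicate 2, and bars the mean of 2 libraries. Prdx4 is lower in both migrasome libraries (148 and 278) than in both cytosol libraries (651 and 774), and Prdx1 is higher in both.

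Prdx1 and Prdx2 are cytosolic peroxiredoxins that use thioredoxin. Prdx1 stood at 4214 and 4564 in cytosol replicates 1 and 2 and at 8062 and 6515 in migrasome replicates 1 and 2. The groups did not overlap, and the migrasome mean was 1.66 times the cytosol mean. Its difference was 0.72 ± 0.22 (SE, limma adjusted p = 0.040). Prdx2 stood at 1029 and 1074 in cytosol and 1871 and 1640 in migrasome, a ratio of means of 1.67. The 2 groups were again apart, with a difference of 0.74 ± 0.20 (limma adjusted p = 0.024). Both calls sat close to the threshold, and both were lost when either cytosol library was left out, although the differences changed little. With 1 library left out of a group, the spread of the remaining one was taken from the other group. Without cytosol replicate 1 or 2 the difference was 0.67 or 0.78 for Prdx1 and 0.71 or 0.77 for Prdx2. Without migrasome replicate 1 the difference of Prdx1 was 0.57 and did not pass. With quantile normalization the difference of Prdx1 was 0.13 and that of Prdx2 0.47, and neither passed.

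Prdx6, a peroxiredoxin with a single active cysteine that is reduced by glutathione rather than thioredoxin, stood at 1032 and 1457 in cytosol and 1495 and 1740 in migrasome. The groups did not overlap, but cytosol replicate 2 lay close to migrasome replicate 1, and the difference of 0.40 had a 95% interval from -0.12 to 0.91 (limma adjusted p = 0.22). Txn1, the cytosolic thioredoxin that reduces Prdx1 and Prdx2, stood at 3011 and 4703 in cytosol and 4282 and 5847 in migrasome. Its groups overlapped, replicate 2 being the higher library in each, and the interval of the difference ran from -0.20 to 1.02 (limma adjusted p = 0.28). Its sign turned with quantile normalization, to -0.14. Txnrd1, the cytosolic reductase, was at nearly the same level in all libraries, 2289 and 2438 in cytosol and 2181 and 2240 in migrasome. Its interval ran from -0.54 to 0.35 (limma adjusted p = 0.73). The cytosolic peroxiredoxin, thioredoxin and reductase mRNAs thus did not all sit above the cytosol level in migrasome.

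Prdx3, the mitochondrial peroxiredoxin, stood at 961 and 1367 in cytosol and 1516 and 1827 in migrasome. The groups did not overlap, and the difference of 0.54 ± 0.23 did not pass (limma adjusted p = 0.11), although its own 95% interval, from 0.019 to 1.06, lay above 0. Txn2, the mitochondrial thioredoxin, stood at 812 and 917 in cytosol and 898 and 682 in migrasome, so that its groups overlapped (difference -0.14, interval -0.62 to 0.34, limma adjusted p = 0.64). Without migrasome replicate 2 its difference was 0.057. Txnrd2, the mitochondrial reductase, was the lowest of the 10 at 48.1 and 54.2 in cytosol and 60.8 and 35.5 in migrasome. These values rest on 27 to 79 reads per library, and the interval from -0.89 to 0.63 shows how little a difference could be resolved at this depth. Its difference was 0.25 without migrasome replicate 2 and 0.29 with quantile normalization, against -0.13 with all libraries and the deposited scaling. Prdx5, made for mitochondria, peroxisomes and cytosol, stood at 798 and 722 in cytosol and 1372 and 963 in migrasome. Its groups did not overlap, and its difference of 0.60 ± 0.23 did not pass (limma adjusted p = 0.076). Without migrasome replicate 1 or 2 the difference of Prdx5 was 0.34 or 0.85, and it passed without replicate 2 (limma adjusted p = 0.0039). That of Prdx3 passed without migrasome replicate 1 (difference 0.67, limma adjusted p = 0.046).

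**Figure D2:**
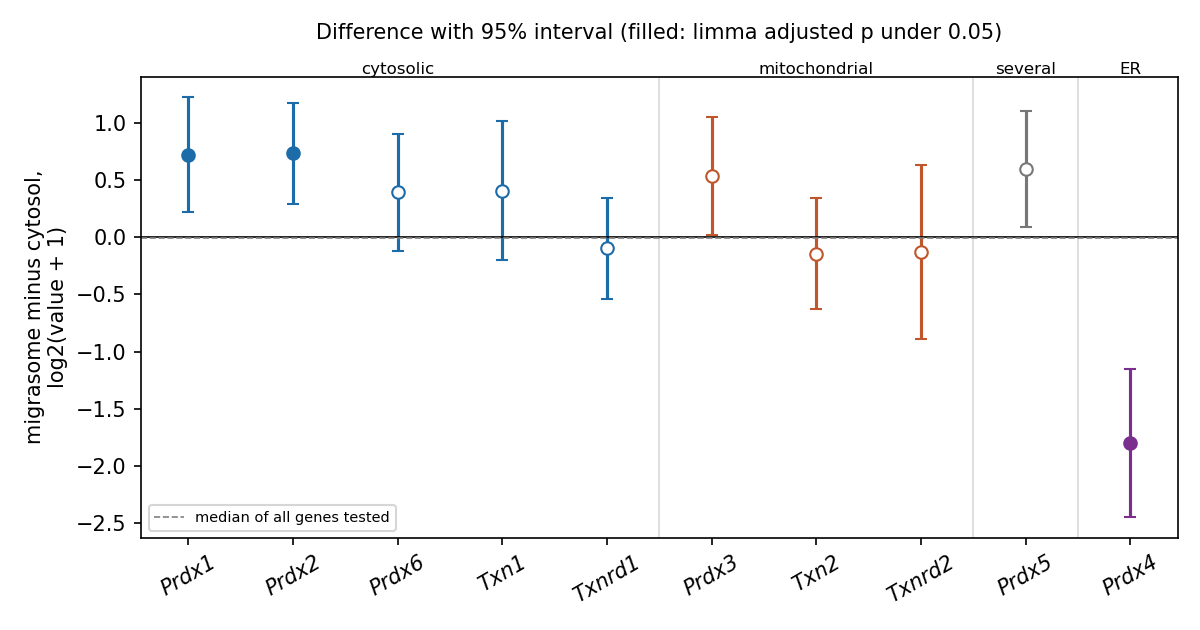
Difference between migrasome and cytosol (vertical axis, log2(value + 1)) for each gene, with its 95% interval from limma and filled points where the adjusted p was under 0.05. The dashed line is the median of all genes tested. The interval of Prdx4, -2.45 to -1.15, lies below those of the other 9 genes.

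Prdx4, the ER peroxiredoxin, stood at 651 and 774 in cytosol replicates 1 and 2 and at 148 and 278 in migrasome replicates 1 and 2. Both migrasome libraries lay below both cytosol libraries, and the migrasome mean was 0.299 of the cytosol mean. The difference was -1.80 ± 0.29 (SE, 95% interval -2.45 to -1.15, limma adjusted p = 0.0020). Only 5.41% of the genes tested had a lower difference. The call held in all 14 alternatives, with differences from -2.25 (without migrasome replicate 2) to -1.35 (without migrasome replicate 1) and adjusted p-values of at most 0.015. The 2 migrasome libraries differed from each other by more than the 2 cytosol libraries did, and the size of the fall depends on which is used. Because the libraries are bulk samples, fewer migrasomes with the mRNA and fewer copies in each cannot be told apart.

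A ratio between 2 genes of the same library hardly depends on how the libraries were scaled (1 was added to each value first), and it sets Prdx4 against each of the other 9 genes directly. Among reads of the 6 peroxiredoxins, Prdx4 held 7.49% of 11196 in cytosol replicate 1 (exact Clopper-Pearson 95% interval 7.013 to 7.997) and 7.78% of 14518 in cytosol replicate 2 (7.35 to 8.22). In migrasome it held 1.03% of 10228 reads in replicate 1 (0.84 to 1.24) and 2.14% of 9849 in replicate 2 (1.87 to 2.45). Each interval was computed within a library and covers counting error only, not the spread between libraries. It takes the reads as independent. Reads that carry no molecular identifier need not be independent molecules, so the intervals may be too narrow. The 2 cytosol shares agree within these intervals, while the migrasome shares differ from each other and lie well below.

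The log2 ratio of Prdx4 to Prdx1 was -2.69 and -2.56 in cytosol and -5.75 and -4.55 in migrasome, a change of -2.52. The ratio to Prdx3, the mitochondrial counterpart, was -0.56 and -0.82 in cytosol and -3.34 and -2.71 in migrasome, a change of -2.34. In cytosol Prdx4 was thus not far below Prdx3, and in both migrasome libraries it was much further below. The ratio to Prdx5 was -0.29 and 0.10 in cytosol and -3.20 and -1.79 in migrasome. Some of the genes hardly differed between the groups at the deposited scaling. Relative to them the changes were smaller, at -1.70 against Txnrd1, -1.67 against Txnrd2 and -1.66 against Txn2. Their size rests on migrasome replicate 1, without which they were -1.27, -0.84 and -1.01. The changes against Prdx2, Prdx6 and Txn1 were -2.54, -2.20 and -2.21. All 9 ratios were lower in both migrasome libraries than in both cytosol libraries. They share Prdx4 as the first gene, so they are not 9 separate results. An exact permutation test of 2 libraries against 2 (two-sided) gave p = 0.33 for each of the 9, and 0.33 after Benjamini-Hochberg adjustment, which is the smallest value it can give.

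**Figure D3:**
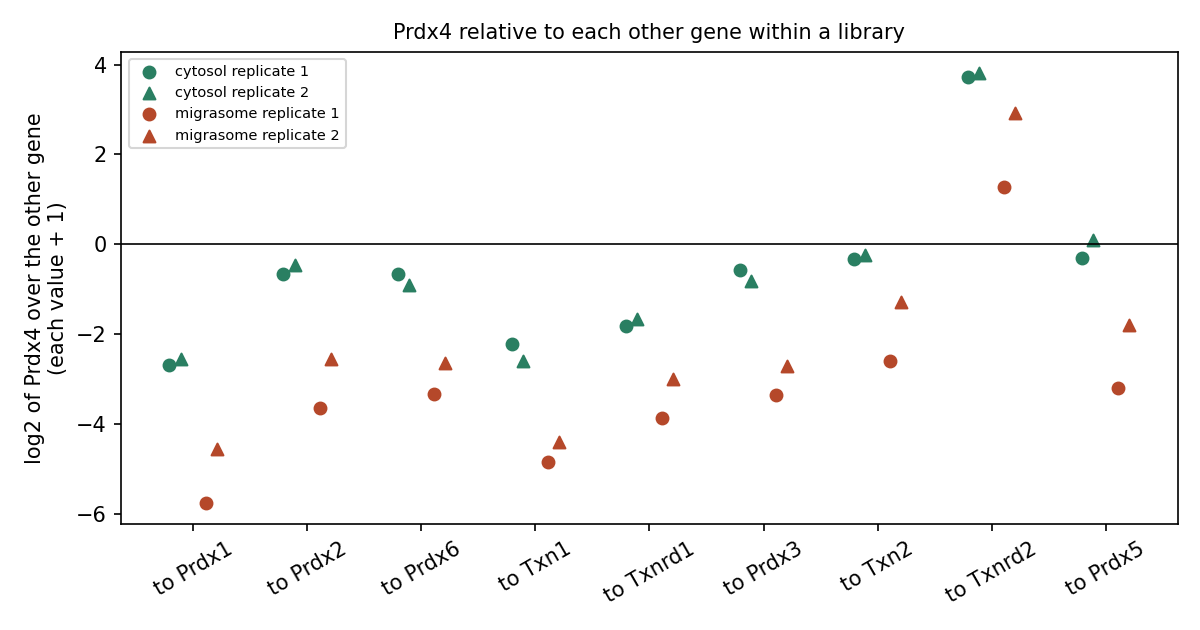
Log2 ratio of Prdx4 to each other gene within a library (vertical axis, each value + 1 before the ratio). Circles are replicate 1 and triangles replicate 2. In all 9 comparisons both migrasome points lie below both cytosol points. All 9 share Prdx4, so they are not separate results.

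Levels of different genes were compared per kilobase of annotated exon. In cytosol Txn1 was highest at 3670 ± 1138 per kilobase (SD, n = 2), followed by Prdx1 at 1442 ± 81.3 and Prdx3 at 788 ± 194, each apart from the next. Prdx5 (355 ± 25.4), Prdx2 (345 ± 10.4), Prdx4 (338 ± 41.5) and Txnrd1 (334 ± 14.8) then overlapped with their neighbours. Prdx6 (259 ± 62.6) and Txn2 (205 ± 17.6) overlapped each other, and Txnrd2 was lowest at 11.6 ± 0.98. Prdx4 was therefore in the middle of the family in cytosol. In migrasome the first 3 were again Txn1 (4819 ± 1053), Prdx1 (2395 ± 360) and Prdx3 (1131 ± 149). Prdx2 (576 ± 53.6) overlapped Prdx5 (546 ± 135), Prdx6 (337 ± 36.1) overlapped Txnrd1 (312 ± 5.91), and Txn2 followed at 188 ± 36.3. Prdx4 came in place 9 at 101 ± 43.4, apart from Txn2 above it and from Txnrd2 (10.9 ± 4.06) below. Per kilobase of the principal transcript alone, whose length for Prdx1 is 877 bases against 3043 of annotated exon, Prdx1 was first in both groups, and Prdx4 went from place 4 in cytosol to place 9 in migrasome.

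Most near copies of these genes took few reads. Among annotated genes whose transcripts share at least 50 stretches of 31 bases with one of them, the Prdx1 pseudogenes Gm21399 and Gm7204 stood at 3.10 to 15.6 and the Prdx2 pseudogene Tdpx-ps1 at 1.41 to 4.80, while Txn-ps1 and Prdx6b were without a read. Txn2 shares 51 to 66 such stretches with 5 genes, among them Atp5g1 (1059 to 1392) and Atp5l (687 to 1375), at most 3.43% of the stretches of any of the 5. No such gene was found for Prdx4. The sources used here do not say how reads with several matches were counted, so small gains from or losses to these genes are possible. Exons of Prdx2 overlap those of Junb (173 bases) and Rnaseh2a (177 bases) on the opposite strand, and exons of Prdx5 those of Trmt112 (409 bases). The strand setting of the counting is not stated, so reads in those stretches cannot be assigned with certainty. Junb stood at 209 and 193 in cytosol and 93.3 and 134 in migrasome, against the direction of Prdx2, and Rnaseh2a at 425 and 443 in cytosol and 694 and 544 in migrasome, along with it. Exons of Prdx4 overlap no other annotated gene.

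The wider redox genes were sorted by compartment in the same way. Their lists were chosen with earlier results of these data known. In the ER list, 20 of 22 tested genes with a thioredoxin fold or a role in oxidative folding fell and none rose, with a median of -1.72, against 17.7% falling among all genes tested. The count was 19 to 21 with any 1 library left out, and 20 and 21 under the other scalings. The protein disulfide isomerases P4hb (8268 and 8266 in cytosol, 1838 and 2327 in migrasome) and Pdia6 (4042 and 3505, 781 and 957), each lower in both migrasome libraries, fell by 2.00 ± 0.22 and 2.12 ± 0.21 on the log2 scale by limma. Pdia4 (-2.09) and Txndc5 (-1.63) fell as well. In all 22 genes both migrasome libraries lay below both cytosol libraries, against 36.3% of all genes tested. The difference of Prdx4 sat within the list, below 13 of its members and above 9. The 2 without a call, Txndc16 (-0.70) and Tmx4 (-1.10), stood at means of 52.5 and 47.5 in cytosol. Malat1, at 10534 and 5593 in cytosol and 5102 and 3882 in migrasome, had a difference of -0.79 that did not pass (limma adjusted p = 0.084), and the part of nuclear RNA in the ER differences was not tested. Of the 7 fibroblast markers, Col1a1, Col1a2, Col3a1, Pdgfrb and Fn1, which encode secreted or membrane proteins, also fell, and Vim rose. The membrane protein gene Thy1 stood at 8.53 and 7.54 in cytosol and 12.7 and 23.7 in migrasome (1.03) and did not pass. Vim did not pass with quantile normalization (0.23, limma adjusted p = 0.43) or without a filter (limma adjusted p = 0.099). Fn1 did not pass without a filter or with eBayes without a trend (limma adjusted p = 0.078 in each). Without cytosol replicate 1 the difference of Fn1 was -0.55 (limma adjusted p = 0.33), and without cytosol replicate 1 or 2 the limma adjusted p of Vim was 0.19 or 0.33.

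In the list of partners of the cytosolic system, 2 of 12 tested genes rose, 1 fell and 9 did not pass, with a median of 0.01. Of all genes tested 8.68% rose and 17.7% fell. The list also counts Txnl4a (0.11) and Txnl4b (-0.23), spliceosome proteins with a thioredoxin-like name, and neither passed. Txnl1, a thioredoxin-like protein of the proteasome, rose from 1480 and 1548 in cytosol to 2892 and 2182 in migrasome (0.73 ± 0.22, limma adjusted p = 0.034), a size like that of Prdx1. Sesn3 rose and Sesn2 fell, 2 sestrins, which are stress-induced regulators of the kinase mTORC1. Sesn3 stood at 36.5 and 34.3 in cytosol and 90.5 and 110.5 in migrasome (1.47 ± 0.29), and Sesn2 at 288 and 286 in cytosol and 107 and 176 in migrasome (-1.05 ± 0.27). The sulfiredoxin Srxn1, which repairs overoxidised peroxiredoxins, stood at 607 and 669 in cytosol and 511 and 619 in migrasome without passing. Neither did the thioredoxin-like genes Txndc17 (0.37) and Txndc9 (0.25). Without cytosol replicate 1 or 2 the limma adjusted p of Txnl1 was 0.21 or 0.17, and that of Sesn2 0.058 or 0.053. Without migrasome replicate 1 that of Txnl1 was 0.065. Neither gene passed without a filter or with eBayes without a trend (limma adjusted p = 0.075 and 0.079 for Txnl1, 0.051 and 0.050 for Sesn2), and Txnl1 passed under neither other scaling (0.098 and 0.13).

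In the cytosolic glutathione list 3 of 14 rose and 1 fell, with a median of 0.42, beside the same 8.68% and 17.7% of all genes tested. Glrx3, a glutaredoxin that carries iron-sulfur clusters, rose from 1402 and 1540 in cytosol to 3029 and 2566 in migrasome (0.92 ± 0.21), and the glutathione transferase Gstm1 rose by 0.97 ± 0.27. The other gene that rose was Gss (0.91 ± 0.25), the glutathione synthetase. Gclc, the catalytic subunit of the first enzyme of glutathione synthesis, fell by 0.69 ± 0.21 on the log2 scale by limma, from 275 and 275 in cytosol to 171 and 170 in migrasome. The most abundant of the others, Gpx4 (0.53), Gsto1 (0.28) and Sod1 (0.63), did not pass. Of 7 tested mitochondrial redox genes 2 rose and none fell, with a median of 0.30 (8.68% and 17.7% of all genes tested), the untested one being Msrb2. They were the superoxide dismutase Sod2 (0.65 ± 0.20) and the NADPH-producing Idh2 (0.96 ± 0.22), while Glrx5 (0.29) and Oxr1 (0.31) did not pass. Sod2, Glrx3 and Gclc no longer passed when either cytosol library was left out. The same held for Gstm1 without cytosol replicate 1, for Gss without cytosol replicate 1 or migrasome replicate 1 and for Idh2 without cytosol replicate 2, and the limma adjusted p-values of these 6 genes were then 0.057 to 0.30. Without a filter, and with eBayes without a trend, Sod2, Gclc, Gstm1 and Gss did not pass (limma adjusted p from 0.057 to 0.083). Sod2, Gstm1 and Gss did not pass with equal library totals (0.074 to 0.15), nor Sod2 and Gclc with quantile normalization (0.072 and 0.11), nor Gclc with DESeq2 (0.075).

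Nrf2 (Nfe2l2) is the transcription factor that induces Prdx1, Txn1, Txnrd1 and Srxn1 under oxidative stress, and Keap1 holds it in check. In the list of these regulators and other Nrf2 targets 4 of 10 rose and 1 fell, with a median of 0.66, where 8.68% of all genes tested rose and 17.7% fell. The list does not hold every target. Of those named above, which are not in it, Prdx1 passed as higher (0.72). Txn1 (0.41), Txnrd1 (-0.10) and Srxn1 (-0.18) did not pass. The quinone reductase Nqo1 stood at 52.0 and 48.0 in cytosol and 105 and 121 in migrasome (1.16 ± 0.27), and Taldo1, of the pentose phosphate pathway that makes NADPH, rose by 1.03 ± 0.23. The other genes that rose were G6pdx (0.85) and Me1 (0.90), which also make NADPH. Tkt (0.74), Pgd (0.57) and Keap1 (0.14) did not pass. Nor did Nfe2l2 itself, at 126 and 134 in cytosol and 86.3 and 92.1 in migrasome (-0.54), or the heme oxygenase Hmox1, at 90.0 and 58.3 in cytosol and 38.2 and 39.5 in migrasome (-0.88). The gene that fell was the cystine transporter Slc7a11, the only membrane transporter of the list, at 535 and 483 in cytosol and 124 and 279 in migrasome (-1.44 ± 0.33). Leaving out either cytosol library ended the call of Nqo1, and leaving out cytosol replicate 2 ended that of Taldo1 (limma adjusted p from 0.055 to 0.087). G6pdx did not pass without cytosol replicate 1 (0.18), nor Me1 without cytosol replicate 2 (0.16) or migrasome replicate 1 (0.077). With equal library totals, and with eBayes without a trend, neither of them passed (limma adjusted p from 0.050 to 0.091), and without a filter Me1 did not (0.069). With equal library totals, 2 genes of this list were higher and 3 lower.

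**Figure D4:**
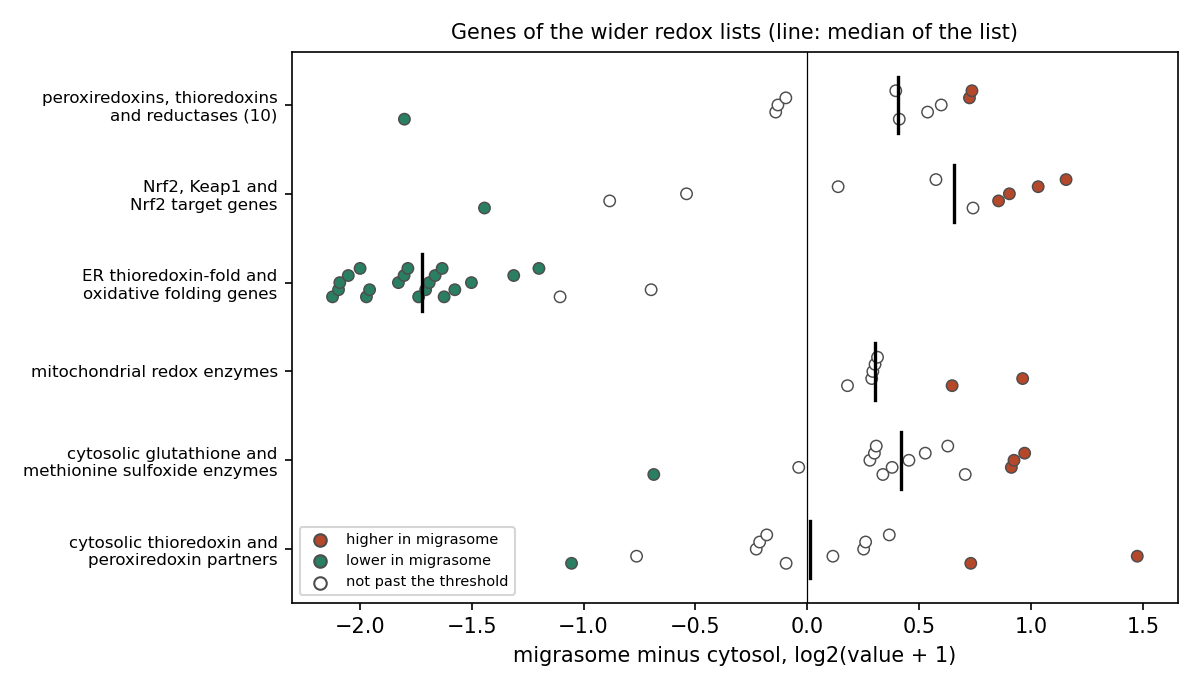
Difference between migrasome and cytosol (horizontal axis, log2(value + 1)) of every tested gene in the 5 wider lists and of the 10 genes. Red and green points passed the limma threshold as higher and lower, white points did not, and black lines are medians. The ER list lies wholly to the left of 0, with a median of -1.72, and the other medians lie between 0.01 and 0.66.

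By the Euclidean distance between centred log2 values over the 4 libraries, the genes nearest to Prdx4 among 10092 named genes were Sema3a (-1.84), a secreted guidance protein, Sc5d (-1.70), a sterol synthesis enzyme of the ER membrane, and Dhrs7 (-1.86). Their distances from Prdx4 were 0.066, 0.097 and 0.11. Nearest to Prdx1 were Mcm5 (0.73), Polr3b (0.73) and Hadhb (0.74), at distances of 0.0093 to 0.025, and nearest to Prdx3 were Scn2a (0.53), Prmt5 (0.52) and Slc25a12 (0.50), at 0.025 to 0.042. Over 4 libraries, close patterns arise readily, and nothing follows from them about shared function. Txnrd3, another reductase, outside the 10 genes, stood at 131 and 135 in cytosol and 225 and 213 in migrasome and passed as higher (0.71 ± 0.22, limma adjusted p = 0.041), a call lost without either cytosol library (0.25 and 0.21), without migrasome replicate 1 (0.059), with equal library totals (0.17), without a filter (0.073), with eBayes without a trend (0.063) and with DESeq2 (0.051). Of the 18 other symbols that begin with Prdx or Txn, 12 reached a value of 10 in any library and 5 were without a read. Beside Txnrd3 and the genes given above, these were Txndc11 (-1.20), Txndc12 (-2.09) and Txndc15 (-1.74), which belong to the ER list and fell, and Txnip (-0.76), Txnl4a (0.11) and Txnl4b (-0.23), which did not pass. Txnip stood at 62.1 and 67.2 in cytosol and 28.3 and 50.01 in migrasome. Its protein binds and inhibits thioredoxin.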

How the data were processed

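Tools named in the submitters' processing notes, with no version or order, are STAR, HTSeq, DESeq, FastQC, Trimmomatic and cutadapt, and the genome build is GRCm38. The authors deposited a signal per gene. From the values, it is a gene's count over a size factor that is the same for all genes of a library. They counted on an annotation not given in the sources used here. Every value was a whole multiple (tolerance 0.001) of what 1 read is worth in that library, so whole reads were recovered for 100% of values, and 1 read is worth 0.686 to 1.41. On those reads edgeR 4.0.16 called 1071 genes higher and 2064 lower. Chi-square over its degrees of freedom between replicates was 17.6 for cytosol and 27.9 for migrasome, so neither pair is 1 library deposited again.

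log2(value + 1), which understates changes of low genes, went into limma 3.58.1 in R 4.3.3, using eBayes with a trend and no replicate block. This was tested on simulated data. Alternatives changed the pseudocount, filter, scaling, variance model, count tool (edgeR quasi-likelihood, DESeq2 1.42.0), block and libraries. The members, lists, tests and rule for named genes were chosen with earlier results of these data known. The rule names the 10 genes, the 4 most abundant tested genes of each list and its largest called difference in each direction, and the 3 nearest patterns. Of the symbols that begin with Prdx or Txn it takes those that reach 10 in any library. Gss, G6pdx, Me1, Nfe2l2, Hmox1, Tmx4, the overlapping genes, the copies and the marker genes were named after their values were seen. All 10 symbols were found in GENCODE M21. An overlap with another gene is not reported here. Coding sequences were aligned globally without end-gap cost. Figures used matplotlib 3.10.9.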

Additional observations from a re-analysis of the deposited data

How the results depend on the processing

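Prdx4 passed as lower in all 14 alternatives. With 1 library left out, the change in its ratio ranged from -3.13 to -1.92 against Prdx1, -3.08 to -1.99 against Prdx2, -2.54 to -1.86 against Prdx6, -2.65 to -2.02 against Prdx3, -3.10 to -1.69 against Prdx5, -2.44 to -1.99 against Txn1, -2.31 to -1.01 against Txn2, -2.13 to -1.27 against Txnrd1 and -2.50 to -0.84 against Txnrd2. Of the 10 genes, 2 were higher in the reported test, with edgeR, DESeq2, either other pseudocount and a minimum mean of 50. The number was 0 without a filter, with the same total per library, with quantile normalization and with eBayes without a trend, and 0 to 3 with 1 library left out. In those 4 settings the difference of Prdx1 was 0.72, 0.45, 0.13 and 0.72 (limma adjusted p = 0.096, 0.096, 0.60 and 0.073), and that of Prdx2 was 0.74, 0.46, 0.47 and 0.74 (limma adjusted p = 0.051, 0.079, 0.066 and 0.063). With 1 library left out Prdx1 ranged from 0.57 to 0.88, Prdx2 from 0.64 to 0.83, Prdx3 from 0.28 to 0.79, Prdx6 from 0.15 to 0.64, Txn1 from 0.089 to 0.73, Prdx5 from 0.34 to 0.85, Txn2 from -0.34 to 0.057 and Txnrd2 from -0.51 to 0.25. Quantile normalization turned Txn1 to -0.14 and Txnrd2 to 0.29. The difference of Txnrd1 was -0.37 with the same total per library and -0.47 with quantile normalization. That of Txn2 was -0.41 and -0.30, and neither gene passed. The median over genes of the shift in each gene's own difference was -0.27 with the same total per library and 0.25 with quantile normalization, and the median difference itself went from -0.0043 to -0.28 and 0.11. In the latter the difference of each of the 10 genes except Prdx4 and Txnrd2 went lower, and the cause was not tested.

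Over all genes tested, 943 were higher and 1919 lower. The numbers higher were 393 without a filter, 316 with the same total per library and 483 with eBayes without a trend, and 231 to 2085 with 1 library left out (1147 to 2800 lower). Calls that were higher made up 32.9% of all calls, against 11.2% with the same total per library and 46.0% with quantile normalization. The correlation across genes of the deviations of same-numbered libraries was 0.23, over 2 pairs, and no label ties same-numbered libraries to each other. With the replicate block 1802 genes were higher, and 4 of the 10, since Prdx3 (0.54, limma adjusted p = 0.038) and Prdx5 (0.60, limma adjusted p = 0.019) also passed.

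With the same total per library, and with quantile normalization, the genes that rose numbered 1 and 1 in the list of cytosolic partners and 1 and 1 in the mitochondrial list. With the same total 1 glutathione gene rose, and of the Nrf2 list 2 rose and 3 fell. With quantile normalization 0 glutathione genes fell. With 1 library left out, an alternative chosen after seeing the data, the partners that rose numbered 1 to 2 and those that fell 0 to 2, the glutathione genes 0 to 6 and 0 to 1, and the Nrf2 genes 1 to 6 and 1 to 2. The mitochondrial genes that rose numbered 0 to 2. Depth limits Txnrd2 most.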
